A study of Brassica rapa subsp. pekinensis with 6 samples.

Results

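Bra031065, Bra025713 and Bra022981 are JAZ (JASMONATE-ZIM-DOMAIN) genes of Chinese cabbage (*Brassica rapa* subsp. *pekinensis*), and their transcripts were measured in developing flower buds by RNA-Seq. They are 3 of the 35616 genes with a read in any of the 6 libraries. The study named them among its differentially expressed genes, which were selected from the same libraries by the difference between the female-sterile mutant *fsm* and the wild-type line ‘FT’ (a false discovery rate of at most 0.001 and an absolute log2 ratio of at least 4). The difference between the lines therefore chose the genes, and it is given here as a description without a test. By the best match given in the study's own gene table, Bra031065 and Bra025713 are both described as Arabidopsis JAZ1 and Bra022981 as Arabidopsis JAZ7. JAZ genes of the genome other than these 3 were not analysed here.

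The mutant *fsm* was obtained from ‘FT’, a doubled haploid line, by ethyl methanesulfonate treatment of isolated microspores, and its pistil abortion is inherited as a recessive trait of a single nuclear gene. Buds at the full-bloom stage were collected from 5 plants for each replicate, which gave libraries M1, M2 and M3 for *fsm* and F1, F2 and F4 for ‘FT’. The methods also state that equal amounts of RNA of the replicates were pooled before the libraries were built, so the spread between libraries of a line may be partly technical. No batch is given, and a batch that coincided with the line cannot be told apart from it.

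JAZ proteins are repressors of jasmonate signalling. In Arabidopsis they bind MYC-type transcription factors and keep jasmonate-responsive genes off. The hormone conjugate jasmonoyl-isoleucine brings many of them, though not all, to the receptor COI1, and those are then degraded. Many JAZ genes of Arabidopsis are themselves switched on by jasmonate or wounding, and jasmonate is known there for its part in stamen maturation and flower opening.

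Bra031065 was the JAZ gene with an assay of its own in the study. For the genes assayed, Bra031065 among them, the paper reports trends by quantitative PCR similar to those by RNA-Seq. Whether the assay read Bra031065 alone, and not also Bra025713, was not tested here. The quantitative PCR primers are shown. Each is written 5′ to 3′ in lower case.
Bra031065 forward: gtgatggacttggcgagca
Bra031065 reverse: ggtttgggataggagcgatg
The forward primer is 19 bases long with 57.9% G and C, and the reverse primer is 20 bases long with 55.0% G and C.

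In units of 1000000 reads, the libraries held 28.1 to 29.4 in *fsm* and 25.0 to 25.4 in ‘FT’. Libraries of a line were alike in CPM (reads of a gene per 1000000 reads of the library). The correlation across genes of log2(normalized CPM + 1) was 0.9965 at the lowest, and the added 1 shrinks differences in scarce genes. Over all genes, 2.91% were called higher in *fsm* and 2.34% lower at an absolute log2 fold change of 4 (edgeR's quasi-likelihood test, Benjamini-Hochberg adjusted p of at most 0.001), and 18.7% were called higher and 18% lower at an absolute log2 fold change of 1. All 3 *fsm* libraries were above all 3 ‘FT’ libraries in 37.5% of genes and below them in another 37.5%, so groups that do not overlap were common in these data.

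All 3 JAZ genes had more transcript in *fsm* than in ‘FT’ buds. All 3 were past a log2 fold change of 4 and did not overlap between the lines, beside 2.91% and 37.5% of all genes, and the selection itself fixed this count. With limma on log2(RPKM + 1), which shrinks low genes, the log2 fold change of Bra022981 was 3.32, below 4. The JAZ1-described genes were about 20 times as high. The JAZ7-described gene was the rarest of the 3 in both lines, and it was scarce in ‘FT’. Its ratio was estimated as higher (28.6) but measured less precisely, and a larger ratio than theirs was not detectable. Levels are given as RPKM, reads per kilobase of coding length per 1000000 reads in the library, which allows genes of unequal length to be compared.

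Bra031065 was the most abundant of the 3. It had 277, 287 and 266 RPKM in the *fsm* libraries M1, M2 and M3, against 13.6, 13.2 and 14.3 RPKM in the ‘FT’ libraries F1, F2 and F4. The groups were far apart, and within each line the highest library was within 1.08 times the lowest. These levels rested on 6688, 6721 and 6145 reads in *fsm* and on 284, 272 and 293 reads in ‘FT’. The mean was 277 ± 10.5 RPKM in *fsm* and 13.7 ± 0.539 RPKM in ‘FT’ (SD, n = 3 each), a ratio of 20.2. The log2 fold change of *fsm* over ‘FT’ was 4.41 with a standard error of 0.08.

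Bra025713, with the same Arabidopsis best match, gave a similar picture at a lower level. It had 112, 128 and 114 RPKM in *fsm*, against 6.59, 5.89 and 5.65 RPKM in ‘FT’. M2 was the highest *fsm* library, as it was for Bra031065, and F1 was the highest ‘FT’ library. The read counts were 2510, 2791 and 2461 in *fsm* and 128, 113 and 108 in ‘FT’. The mean was 118 ± 8.72 RPKM in *fsm* and 6.04 ± 0.487 RPKM in ‘FT’ (SD, n = 3 each), a ratio of 19.5. At 4.36 (standard error 0.09) its log2 fold change was the nearest of the 3 to the selection threshold of 4, and none of the 3 lay below it.

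Bra022981 was the rarest transcript. It had 18.1, 9.34 and 15.6 RPKM in *fsm*, against 0.806, 0.350 and 0.351 RPKM in ‘FT’. The groups did not overlap, but M2 was well below the other *fsm* libraries, whereas it was the highest for the JAZ1-described genes. For Bra031065 the lead of M2 over M1 was small (287 against 277 RPKM). Only 7, 3 and 3 reads stood behind the ‘FT’ levels, and 182, 91 and 150 reads behind those of *fsm*. F2 and F4 were thus at 3 reads, which is no more than the upper limit taken for a gene with a count of 0. The mean was 14.4 ± 4.52 RPKM in *fsm* and 0.502 ± 0.263 RPKM in ‘FT’ (SD, n = 3 each).

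**Figure D1:**
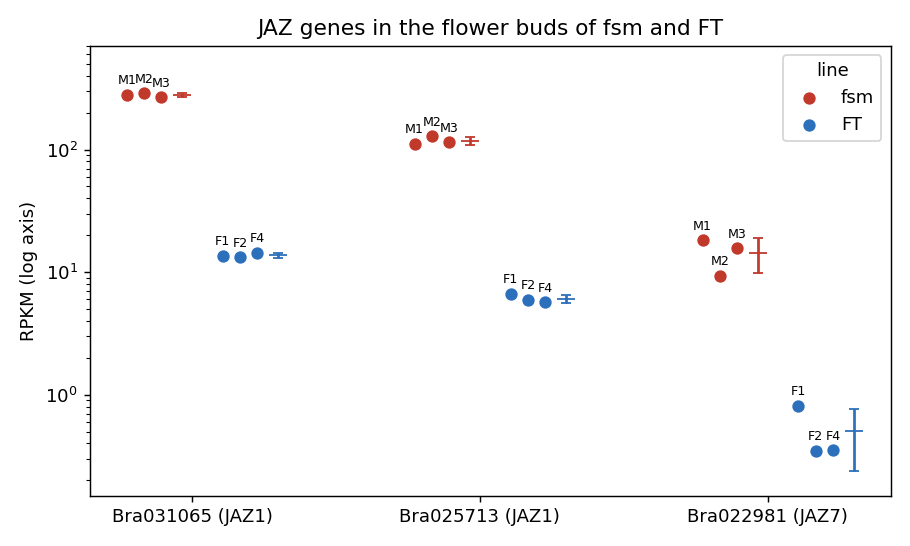
Level of each JAZ gene in RPKM on a log axis. Points are single libraries, *fsm* on the left of each pair and ‘FT’ on the right, and bars are the mean and SD of 3 libraries. All *fsm* points lie above all ‘FT’ points of their gene, and for Bra022981 the *fsm* library M2 (9.34 RPKM) and the ‘FT’ libraries F2 and F4 (0.350 and 0.351 RPKM) are set apart from the others of their line.

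The ratio of the lines was known with unequal precision for the 3 genes. From the summed reads per total reads it was 28.6 for Bra022981, with an exact 95% counting interval of 16.5 to 54.1. The interval was 18.9 to 21.7 for Bra031065 around 20.2, and 17.5 to 21.8 for Bra025713 around 19.5. The interval of Bra022981 took in both other ratios, so a larger ratio for it was not detectable at this depth. Such intervals cover counting error only, since PCR copies of a molecule were not marked. The log2 fold change of Bra022981 was 4.87 with a standard error of 0.33, against 0.08 and 0.09 for the more abundant genes. These standard errors were derived from edgeR's log2 fold change and test statistic. DESeq2 gave 0.48 for Bra022981, 0.08 for Bra031065 and 0.11 for Bra025713.

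In CPM with exact 95% binomial intervals, the libraries of Bra022981 differed within *fsm* beyond counting error. M2 had 3.19 CPM (2.57 to 3.92), below the intervals of M1 at 6.20 CPM (5.33 to 7.17) and M3 at 5.33 CPM (4.52 to 6.26). Within ‘FT’ the intervals overlapped, with 0.276 CPM in F1 (0.111 to 0.568), 0.120 CPM in F2 (0.0247 to 0.350) and 0.120 CPM in F4 (0.0248 to 0.351). A difference between the ‘FT’ libraries was therefore not detectable for this gene.

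The places of the JAZ genes by log2 fold change are a description, since selection at an absolute log2 ratio of at least 4 favoured high places. Genes with few reads were kept in this order. By log2 fold change from the highest, Bra022981 stood at place 753, Bra031065 at place 1002 and Bra025713 at place 1021 of 35616 genes. In the order of levels within a library, Bra031065 was above 98.6% to 98.9% of the detected genes in *fsm* and above 61.0% to 63.1% in ‘FT’. Bra025713 was above 94.8% to 96.0% in *fsm* and above 42.4% to 45.6% in ‘FT’. Bra022981 was above 51.8% to 67.1% in *fsm* and above 10.9% to 17.4% in ‘FT’. In *fsm* buds a JAZ1-described repressor transcript was thus among the abundant messages, at places 449, 370 and 442 in M1, M2 and M3.

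Although their levels differed about 20-fold between the lines, the JAZ1-described genes kept nearly the same proportion to each other. Bra031065 had 2.48, 2.24 and 2.32 times the RPKM of Bra025713 in the *fsm* libraries, against 2.06, 2.24 and 2.52 times in the ‘FT’ libraries. The values of the lines overlapped, and the mean ratio was 2.35 ± 0.121 in *fsm* and 2.28 ± 0.232 in ‘FT’ (SD, n = 3 each). How any reads shared by these genes were assigned is not given, and the part of such reads in this ratio was not tested. Of the summed RPKM of the 3 JAZ genes, Bra031065 made up 67.6% ± 0.465 in *fsm* and 67.7% ± 2.81 in ‘FT’. Bra025713 made up 28.8% ± 1.36 in *fsm* and 29.9% ± 1.79 in ‘FT’. Bra022981 made up the remaining 3.53% ± 1.18 in *fsm* and 2.46% ± 1.2 in ‘FT’ (SD, n = 3 each). The differences in these shares were smaller than the SD within the lines. No test was made of them, since both quantities belong to the contrast that chose the genes.

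Added together, the 3 JAZ genes reached 407, 424 and 396 RPKM in *fsm*, against 21.0, 19.4 and 20.3 RPKM in ‘FT’. The sum was nearly constant within each line, at 409 ± 14.3 RPKM in *fsm* and 20.2 ± 0.780 RPKM in ‘FT’ (SD, n = 3 each). It was carried almost wholly by the JAZ1-described genes. The buds are whole organs, so more cells that express a JAZ gene and more JAZ RNA per cell cannot be told apart.

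The spread between libraries set the JAZ7-described gene apart from the JAZ1-described genes. In *fsm* the coefficient of variation (CV, the SD as a percent of the mean) of normalized CPM was 31.7% for Bra022981, 7.56% for Bra025713 and 4.48% for Bra031065. Counting error alone would give 8.42%, 1.97% and 1.24% for those genes in that order. In *fsm*, 6691 genes had a mean level between 0.5 and 2 times that of Bra022981, and their median CV was 10.6%. Of these, 99.3% had a smaller CV than Bra022981. In ‘FT’ its CV was 52.4%, close to the 48.0% that counting error gives and to the median of 54.9% for 2645 genes of like level.

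Bra031065 and Bra025713 varied about as much as other genes of their level. In *fsm*, 42.8% of 1502 genes of like level had a smaller CV than Bra031065, and 74.3% of 4854 genes of like level had a smaller CV than Bra025713. In ‘FT’ their CVs were 4.48% for Bra031065 and 8.03% for Bra025713, below the medians of 7.24% and 10.7% for genes of their levels. For both genes in ‘FT’ this was no more than counting error gives (5.94% and 9.27%).

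**Figure D2:**
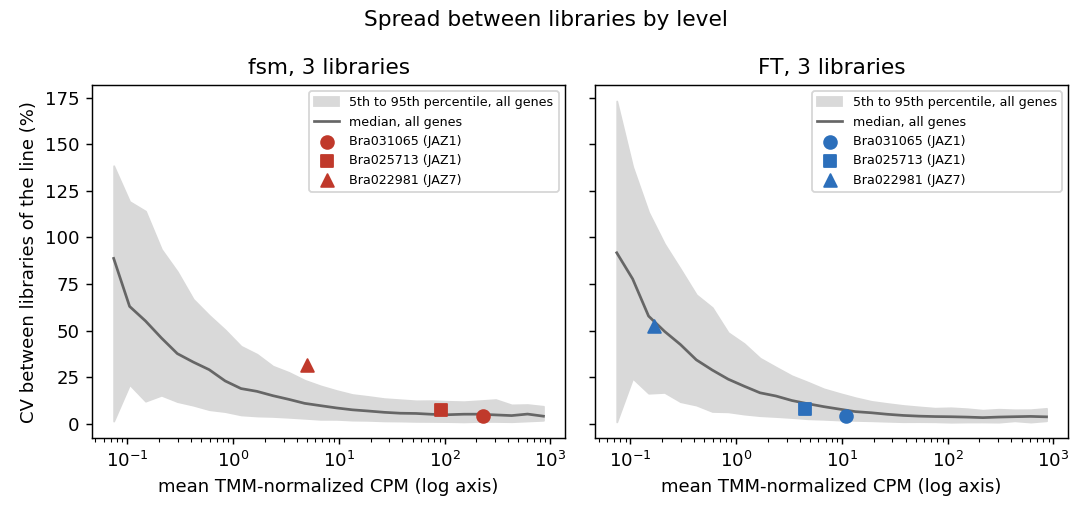
CV between the 3 libraries of a line (in percent) against the mean level in normalized CPM (log axis), *fsm* on the left and ‘FT’ on the right. Symbols are the JAZ genes, the line is the median of all genes and the grey band spans their 5th to 95th percentiles; Bra022981 lies above the band in *fsm* (31.7%) and near the median in ‘FT’ (52.4%), and the JAZ1-described genes lie within the band in both lines.

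The reads of Bra022981 were also unevenly placed along the gene. The coding sequence is 342 bases long (114 codons), the shortest of the 3, against 765 bases (255 codons) for Bra025713 and 822 bases (274 codons) for Bra031065. Reads covered 64.33%, 64.04% and 64.33% of Bra022981 in M1, M2 and M3, against 61.11%, 57.31% and 41.52% in F1, F2 and F4. In *fsm*, 220, 219 and 220 bases were covered, so 122, 123 and 122 bases had no read although 91 to 182 reads were counted. The covered length hardly moved in *fsm* when the reads doubled between M2 and M1. Which bases were uncovered cannot be seen in percentages.

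Coverage this low was rare among genes of like length with at least 90 reads. That set has no upper limit of reads, so many of its genes had more reads than Bra022981. In M1, 722 genes of 300 to 400 coding bases had at least 90 reads, with a median coverage of 98.7%, and 12 of them (1.66%) were covered no more than Bra022981. The same count was 11 of 688 genes (1.60%) in M2 and 15 of 713 genes (2.10%) in M3. In ‘FT’ it was set beside genes of that length with the same number of reads (3 or 7). There, 4 of 25 genes in F1, 19 of 40 in F2 and 5 of 39 in F4 were covered no more than it. The RPKM of Bra022981 was divided by its full coding length, uncovered bases included.

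The JAZ1-described genes were covered over most of their length. In *fsm*, 99.39% to 99.88% of Bra031065 and 99.74% to 99.87% of Bra025713 had reads. In ‘FT’ coverage was 98.05% to 99.64% for Bra031065 and 96.34% to 99.48% for Bra025713.

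**Figure D3:**
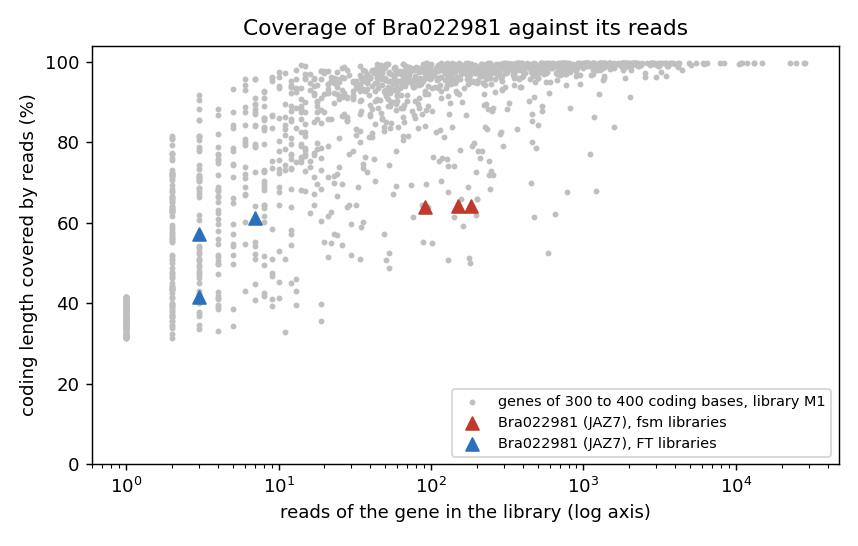
Percent of the coding length covered by reads against the number of reads of the gene in the library (log axis). Grey points are genes of 300 to 400 coding bases in the *fsm* library M1, and triangles are Bra022981 in each *fsm* and ‘FT’ library. Its *fsm* triangles stay near 64%, where the grey points with at least 90 reads have a median of 98.7%.

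The genes nearest in pattern differed for each JAZ gene. Likeness was measured as the Euclidean distance of log2(normalized CPM + 1), centred on each gene's mean, over the 6 libraries and among 26746 genes with a mean of at least 1 CPM. The added 1 CPM shrinks the change of genes that are scarce in one line, so genes near by this measure can have unequal fold changes. Nearest to Bra031065 were Bra035593 (distance 0.121), described as an unnamed protein, Bra010283 (0.123), a putative defense-related protein, and Bra037477 (0.123), described as a peptidyl-prolyl isomerase. Their log2 fold changes were 4.29 for Bra035593, 5.73 for Bra010283 and 4.36 for Bra037477, beside 4.41 for Bra031065. Nearest to Bra025713 were Bra013786 (0.159), described as the chloroplast heat shock protein cpHsc70-1, Bra039265 (0.164), an unnamed protein, and Bra033690 (0.167), a basic helix-loop-helix protein. Their log2 fold changes were 4.15 for Bra013786, 6.12 for Bra039265 and 6.78 for Bra033690, beside 4.36 for Bra025713. The JAZ1-described genes were close to each other but not the closest, with a distance of 0.321 that put Bra031065 at place 40 for Bra025713 and Bra025713 at place 51 for Bra031065.

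Bra022981 had neighbours of its own. They were Bra024855 (distance 0.260) and Bra040605 (0.341), which have no description in the study's table of differentially expressed genes, and Bra027440 (0.335), a conserved hypothetical protein. Bra027440 had 197, 123 and 199 reads in *fsm*, against 8, 4 and 4 reads in ‘FT’. Bra024855 had 174, 105 and 153 reads in *fsm*, against 9, 8 and 8 reads in ‘FT’. Both had their lowest *fsm* count in M2, which their choice as the nearest genes to Bra022981 favours. The JAZ1-described genes stood at places 7950 (Bra025713, distance 2.26) and 9686 (Bra031065, 2.48) from it, although their log2 fold changes were near its own. With an average of 0.168 CPM in ‘FT’, Bra022981 lies below the added 1 CPM, so the distance reflects its low level as well as its pattern.

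Jasmonate metabolism was followed in 7 genes that the study's list of detected genes assigns to the jasmonic acid metabolic process. They were among its most abundant rows by reads in the ‘FT’ library F1, with 4044 reads there for the lowest, Bra000321. The choice was made on abundance in F1 and not on the difference between lines. Genes scarce in ‘FT’ could therefore not enter, such as the allene oxide cyclase Bra017350 with 76 reads in F1. In edgeR's quasi-likelihood test over all genes, 2 of the 7 were called higher in *fsm* (adjusted p at most 0.001 and a log2 fold change of at least 1), beside the 18.7% of all genes. None was called lower in edgeR's test, DESeq2 or limma, although 1 had an unadjusted p under 0.05 in that direction (36.9% of all genes did) and 6 had one in the other (37.3% of all genes). The median log2 fold change of the 7 was 0.33, beside -0.02 over all genes tested. The JAZ genes had log2 fold changes of 4.36 to 4.87, but they were selected at an absolute log2 ratio of at least 4. The sets were chosen in unlike ways, so their fold changes cannot be compared directly.

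The genes called higher were Bra003526 and Bra004057, both assigned a dioxygenase function in the plastid stroma. Bra003526 had 14621, 15224 and 13649 reads in *fsm*, against 5916, 5283 and 4944 reads in ‘FT’. It averaged 186 ± 9.32 RPKM in *fsm* and 78.7 ± 6.53 RPKM in ‘FT’ (SD, n = 3 each). Its log2 fold change was 1.31 ± 0.06 (SE, adjusted p = 9.2e-23 in edgeR's test). Bra004057 averaged 149 ± 6.69 RPKM in *fsm* and 75.0 ± 4.70 RPKM in ‘FT’ (SD, n = 3 each). Its log2 fold change was 1.06 ± 0.06 (SE, adjusted p = 1.2e-19 in edgeR's test). It fell just below a log2 fold change of 1 when library totals replaced TMM normalization (0.99). In these and 4 others of the 7 genes every *fsm* library was above every ‘FT’ library in TMM-normalized CPM, beside 37.5% of all genes by the same measure. In RPKM the lines overlapped for Bra040093 (180 in M3, 182 in F1) and for Bra022927 (154 in M2, 156 in F4).

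The other 5 genes of the list did not pass both thresholds. Bra005522 (171 ± 8.35 RPKM in *fsm* and 120 ± 4.95 RPKM in ‘FT’) and Bra011076 (138 ± 5.38 RPKM in *fsm* and 116 ± 2.30 RPKM in ‘FT’) had log2 fold changes of 0.58 and 0.33. Bra022927 and Bra040093 had log2 fold changes of 0.18 and 0.14, with adjusted p-values of 0.0084 and 0.025 in edgeR's test. With library totals in place of TMM normalization, the adjusted p-values of edgeR's test were 0.10 for Bra022927 and 0.25 for Bra040093. Bra000321, which the study's annotation also places in jasmonate-mediated signalling, averaged 80.0 ± 3.46 RPKM in *fsm* and 130 ± 2.66 RPKM in ‘FT’ (SD, n = 3 each). Its log2 fold change was -0.63 (edgeR adjusted p = 2.9e-12), so it missed the fold threshold and was the one gene of the list with all *fsm* libraries below all ‘FT’ libraries.

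A further 6 genes with jasmonate-related descriptions stand in the study's table of differentially expressed genes and, like the JAZ genes, were chosen from these libraries, so their values are a description. By that choice each of them differs by a large fold, with 4 higher and 2 lower in *fsm*. Bra017350 is described as an allene oxide cyclase, an enzyme of jasmonate synthesis, and had 2559, 2635 and 2670 reads in *fsm*, against 76, 81 and 97 reads in ‘FT’. Its mean of 120 ± 5.24 RPKM in *fsm* and 4.42 ± 0.604 RPKM in ‘FT’ (SD, n = 3 each) was close to that of Bra025713 in *fsm* and lower than it in ‘FT’ (6.04 ± 0.487 RPKM), and its log2 fold change was 4.83. Bra018051 is described as CYP94B3, which in Arabidopsis hydroxylates jasmonoyl-isoleucine, and had 683, 601 and 580 reads in *fsm*, against 0, 5 and 3 reads in ‘FT’.

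The remaining genes of this selected set were rarer or ran the other way. Bra000613, described as wound-responsive, had 15, 8 and 18 reads in *fsm*, against 0, 2 and 0 reads in ‘FT’. Bra016501, described as the plant defensin PDF1.4, had 11, 8 and 6 reads in *fsm* and none in ‘FT’, which makes it at least 7.31-fold higher over a floor of 3 reads for the whole ‘FT’ group. The lower genes included Bra025396, described as PDF1.2b, a defensin that in Arabidopsis belongs to a jasmonate- and ethylene-responsive family. It had 1, 1 and 5 reads in *fsm*, against 161, 148 and 170 reads in ‘FT’. Bra040552, described as CYP94B2, had 1, 2 and 0 reads in *fsm*, against 25, 27 and 37 reads in ‘FT’. Described genes of the CYP94B and PDF1 families were thus found on both sides of the comparison.

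**Figure D4:**
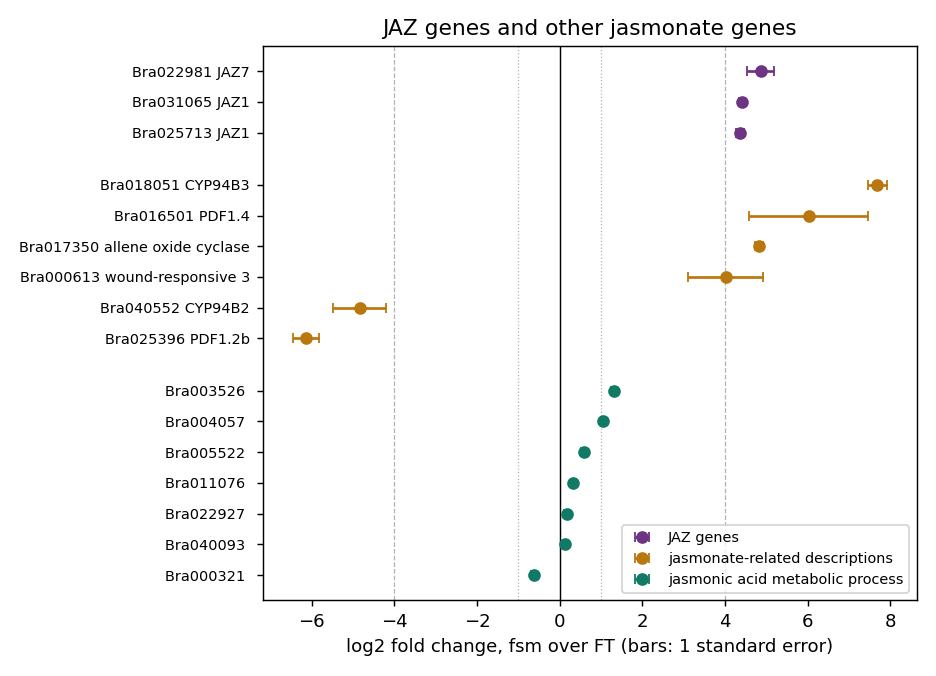
Log2 fold change of *fsm* over ‘FT’ for the JAZ genes (purple), the jasmonate-described genes of the study's selection (orange) and the 7 genes of jasmonic acid metabolism (green), with bars of 1 standard error; vertical lines mark 1 and 4 on either side of 0. The JAZ genes, selected on this contrast, lie between 4.36 and 4.87. The metabolism genes, chosen on abundance in the ‘FT’ library F1, lie between -0.63 and 1.31. The position of Bra016501, with no ‘FT’ read, depends on the prior count of the fit.

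Genes of other kinds also differed between the lines, in both directions. The VGD1 and AGP23 copies, which the study names under floral organ development, were taken here as pollen genes. They were lower in *fsm* in 5 of 5 cases at a log2 fold change of at least 1 in size (18% of all genes). Their summed level was 120 to 134 CPM in *fsm* and 2414 to 2495 CPM in ‘FT’. The gynoecium and ovule genes HEC1 and PFS2 were higher in 2 of 2 cases (18.7% of all genes), with 2.20 to 2.49 CPM in *fsm* and 0.0399 to 0.0800 CPM in ‘FT’. Heat shock genes were higher in 4 of 4 cases (beside the same 18.7%), with 1448 to 1531 CPM in *fsm* and 0.472 to 0.638 CPM in ‘FT’, beside 311 to 337 CPM in *fsm* and 15.5 to 16.5 CPM in ‘FT’ for the summed JAZ genes. HEC1 had no read in F2 and F4 and PFS2 none in F1, whereas every pollen gene had reads in every library. All of these genes were chosen by the study on these libraries. The part of bud composition or heat in the JAZ difference was not tested.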

How the data were processed

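Messenger RNA, isolated with oligo(dT) beads from total RNA of developing flower buds, was sequenced on an Illumina platform, with 3 libraries for each line. The authors aligned clean reads to the *B. rapa* reference genome with SOAPaligner/SOAP2. They deposited a read count per gene and library, headed as unique reads, without normalization. The deposited library sums exceed the totals of uniquely matched reads, and also of all mapped reads, that the study states. The counts can therefore not be taken as those uniquely matched reads. How reads shared by near-identical genes were assigned is not given in the sources used here. The authors also deposited RPKM values (counts per kilobase of coding length and per 1000000 reads) and coverage, the percent of the gene with reads, which slightly exceeds 100 in a few genes. The submitters' processing notes name DESeq. Genes not listed in a library were taken as 0 reads.

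Lines were taken from the genotype labels. Counts of all libraries were fitted with the quasi-likelihood test of edgeR 4.0.16 under R 4.3.3 (TMM factors, no filter, Benjamini-Hochberg adjustment over 35616 genes), a procedure tested on simulated data. Alternatives used DESeq2 1.42.0, limma 3.58.1 on log2-transformed RPKM (pseudocount of 1 or of 0.1), other normalizations, a filter, a prior count of 2, each library left out, and the replicate block. The genes named were the 3 JAZ genes, the genes of both jasmonate lists, the cell type and heat markers and the 3 nearest genes in pattern. The JAZ genes and lists were chosen with earlier results of these data known. The labels do not say whether equal replicate numbers pair libraries. Of 35616 gene identifiers 1 was found in the RefSeq table for another assembly, and no coordinates or protein sequences were used here.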

Additional observations from a re-analysis of the deposited data

How the results depend on the processing

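The 3 JAZ genes were higher in *fsm* under all 14 alternatives, with log2 fold changes of 3.32 to 5.38 for Bra022981, 4.08 to 4.43 for Bra025713 and 4.24 to 4.48 for Bra031065. The lowest values came from limma on log2(RPKM + 1), which understates the change of low genes (3.32, 4.08 and 4.24). Leaving out each library in turn gave 4.65 to 5.38, 4.29 to 4.43 and 4.38 to 4.44. Counts of genes called at an absolute log2 fold change of 4 depended on the handling of low counts. They were 1038 higher and 835 lower, against 336 and 161 with log2(RPKM + 1) and 691 and 486 with log2(RPKM + 0.1), and 441 lower with a prior count of 2. Without single libraries they were 948 to 1011 higher and 726 to 807 lower. At an absolute log2 fold change of 1 they stayed within 1.5 times. Of the 7 jasmonate metabolism genes, 1 and not 2 was called higher with library totals and with limma on log2(RPKM + 1) or log2(RPKM + 0.1), because Bra004057 lay just below the threshold; 2 were called with each library left out. The ratio of Bra031065 to Bra025713 in *fsm* was 2.52 from counts not divided by length, against 2.35 from RPKM, by construction. Without single libraries it was 2.28 to 2.40 in *fsm* and 2.15 to 2.38 in ‘FT’. Only the numbers 1 and 2 occur in both lines, and deviations of equally numbered libraries correlated at -0.07 and 0.09 across genes. These values cannot decide whether equal numbers pair libraries, since they were not set beside unequally numbered ones. With the replicate block over those 4 libraries, 969 genes were called higher and 781 lower at an absolute log2 fold change of 4, and Bra022981 had a log2 fold change of 4.62. The depth limits Bra022981 most, with 13 reads in all of ‘FT’.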
